A study of Rattus norvegicus with 26 samples.

Results

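miR-101a and miR-101b (rno-miR-101a and rno-miR-101b), the 2 rat members of the miR-101 family, were followed across normal and regenerating rat liver. They were taken by name, without the star strands, and were 2 of the 677 miRNAs on the array. Both were among the 144 miRNAs tested, each of which was seen on all arrays of some group. The 26 single-colour Agilent miRNA arrays each carried total RNA from the right liver lobes of 1 male Sprague-Dawley rat. Normal liver came from 3 rats without hepatectomy, whose protocol label nevertheless reads sham. The other rats had lost the left lateral lobe (1/3 PH) or had undergone the classical 2/3 PH, the second of which drives most hepatocytes into the cell cycle, and were sampled 6, 12, 24 or 36 h later. There were 3 arrays per group except at 6 h after 1/3 PH, with 2. Livers were bulk tissue, so a lower level per cell and fewer cells of an expressing type cannot be told apart.

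miRNAs are short RNAs cut from a hairpin and loaded into an Argonaute protein, which they guide to messenger RNAs that pair with their bases 2 to 8, the seed. miR-101 is best known for repressing Ezh2, the methyltransferase of the Polycomb complex PRC2, and is commonly low in hepatocellular carcinoma, where restoring it slows growth. These are background facts and were not measured on these arrays. The question put to the data was whether either member moved with the size of the resection or the time after it, and whether the 2 moved together.

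The mature sequences are shown because they carry the likeness of the members and bear on how far probes can keep them apart. The array's names without a star matched the 3p arms of the RefSeq table (build GRCr8), given here 5′ to 3′ with the seed in capitals.
miR-101a-3p: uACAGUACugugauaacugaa
miR-101b-3p: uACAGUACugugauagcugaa
miR-144-3p: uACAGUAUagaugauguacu
Both members were 21 bases long, had the same seed, and differed by 1 substitution, A16G, counted from the 5′ end with the base of miR-101a first. Among 724 mature rat miRNAs in that table, 3 had the same bases 2 to 7, the members and miR-144-3p, an erythroid miRNA whose base 8 differs from theirs. The members came from separate genes. Mir101a gives miR-101a-3p from chr5:121081691-121081711 on the minus strand, within an uncharacterised long noncoding RNA gene, and Mir101-2 gives miR-101b-3p from chr1:236273982-236274002 on the plus strand, within the protein-coding gene Rcl1. The tables used here did not give the exons of these genes or the sequences of the probes, so the cross-hybridisation that a single base allows was not tested. miR-144 was detected on 1 of 26 arrays, and the star strands of miR-101a and miR-101b on 0 of 26.

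Signals were expressed relative to the 75th percentile of 109 probes seen on every array, and this ratio is called the scaled signal. miR-101b was detected on 26 of 26 arrays. miR-101a was dim: its 2 probes summed to a median of 38.9 signal units, and it was detected on 25 of 26 arrays. The exception was 1/3 PH 12 h replicate 2, which stood apart from all others, with a total signal of 11768 units against 38371 to 67278 and 91 miRNAs detected. On that array miR-101a was at the floor, the lowest signal of any probe well above background, and its value there is an upper bound. The 2 members were read by different probes, so neither was ranked above the other in level, and only changes of their difference between arrays are given below.

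In normal liver, the scaled signal of miR-101a was 0.160, 0.260 and 0.220. At 12 h after 2/3 PH it was 0.0983, 0.0929 and 0.143, every array below every normal array. For miR-101b the normal values were 1.07, 1.45 and 1.54, and those at 12 h after 2/3 PH were 0.894, 0.682 and 0.977. Again the groups did not overlap, although the lowest normal liver, replicate 1, came close to the highest regenerating one. The share of the 144 miRNAs tested whose arrays separated in this way was not computed. Separation of arrays is therefore only a description, here and below. miR-101a fell to 0.52 of normal (log2 difference -0.94, 95% confidence interval of the fold 0.388 to 0.704, adjusted p = 0.015) and miR-101b to 0.63 of normal (-0.67, 0.497 to 0.794, adjusted p = 0.019), by limma over the 144 miRNAs with Benjamini-Hochberg adjustment. On replicates 1 and 2 at 12 h after 2/3 PH the summed signal of miR-101a was 18.4 and 22.2 units and called detected. The floors there, 10.03 and 12.9 units, are those of a single probe, not of a sum of 2. Read singly, 1 of its probes was at or below the floor on replicate 1, and both were on replicate 2. The size of the miR-101a fold is therefore less certain than that of miR-101b. In that comparison 6.94% of the miRNAs tested were called, and 6.25% were called lower. Ordered from the lowest log2 difference of the 144, miR-101a was at rank 2 and miR-101b at rank 8.

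**Figure D1:**
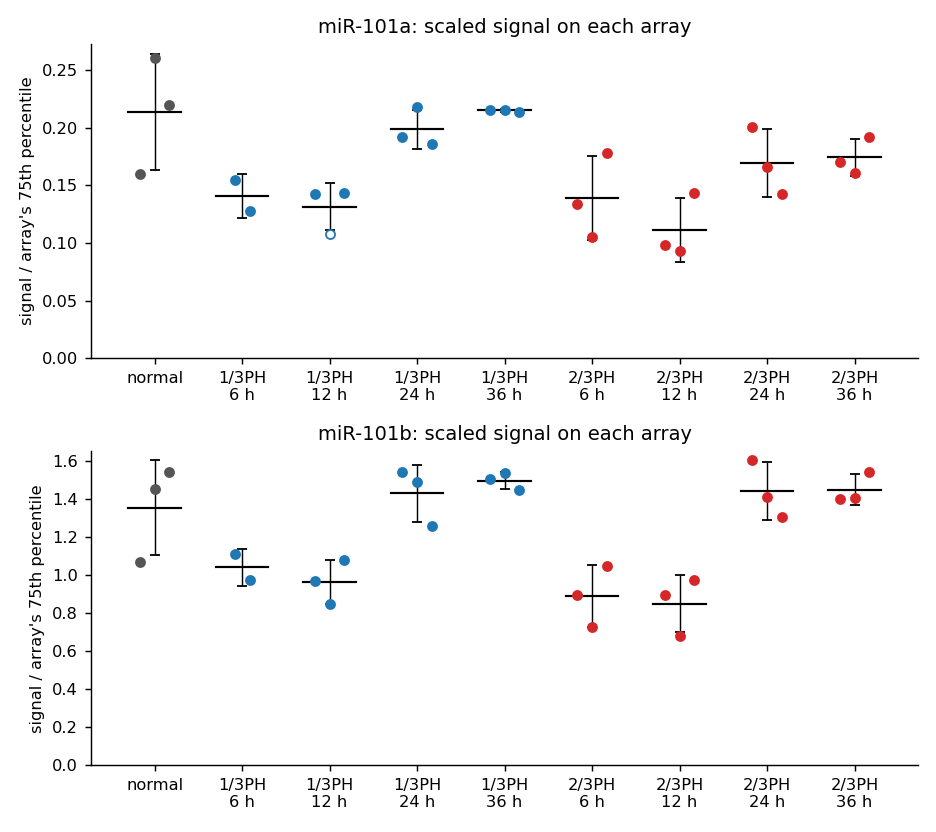
Scaled signal of miR-101a (top) and miR-101b (bottom), as a ratio to the array's 75th percentile, for each array by group; points are arrays, the open point is the array on which miR-101a was not detected, and black lines are the mean and SD. The arrays at 12 h after 2/3 PH lie between 0.0929 and 0.143 for miR-101a and between 0.682 and 0.977 for miR-101b, below the 3 normal arrays.

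The call at 12 h after 2/3 PH rested on few arrays and depended on the processing. Among alternatives of processing it was lost in 8 and kept in 7 for miR-101a, and lost in 7 and kept in 9 for miR-101b. It was lost for both members without normal replicate 2, without normal replicate 3 or without 2/3 PH 12 h replicate 2, with log2 differences from -0.90 to -0.78 for miR-101a and from -0.61 to -0.52 for miR-101b. With the slide as a fixed block the differences were -0.99 and -0.71 and the adjusted p was 0.104 for both, and with the scan day as a block they were -0.89 and -0.61 (adjusted p = 0.030 and 0.045). The normal livers lay on separate slides and scan days, so within a day there was 1 normal array: on day 1 the log2 differences were -0.74 for miR-101a and -0.46 for miR-101b, and on day 3 they were -0.86 and -0.57. With the normexp background correction miR-101a differed by only -0.08 (adjusted p = 0.94) and miR-101b by -0.43 (0.38), and in the authors' log2 table by -1.41 (0.76) and -0.57 (0.17).

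At 6 h the members lay in the same direction, but no miRNA was called after either operation (0% of 144, with 8 miRNAs at an unadjusted p below 0.05 after 1/3 PH and 15 after 2/3 PH). After 2/3 PH, miR-101a measured 0.134, 0.106 and 0.178 and miR-101b 0.895, 0.728 and 1.05. The miR-101b arrays were all below the normal arrays, while those of miR-101a overlapped them. The log2 differences from normal were -0.62 (adjusted p = 0.18) and -0.60 (0.070). At 6 h after 1/3 PH, miR-101a measured 0.154 and 0.128, both under the lowest normal array, and miR-101b 1.11 and 0.972, the first of them above it. The differences there were -0.58 and -0.37, both with an adjusted p of 0.77. Both arrays shared a slide with 1 normal array, and against that array the differences were only -0.19 and -0.05. On replicate 2 at 6 h after 1/3 PH both miR-101a probes were at or below the floor. In the comparison with all normal arrays miR-101a had the lowest log2 difference of the 144 miRNAs, yet it did not pass the test.

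At 12 h after 1/3 PH, miR-101a measured 0.142 and 0.144 on 2 arrays and was at the floor of 0.108 on the dim one, and miR-101b measured 0.967, 0.848 and 1.08. The highest miR-101b array just exceeded the lowest normal one. The log2 differences from normal were -0.68 (adjusted p = 0.056) and -0.48 (0.080), in a comparison where 4.17% of miRNAs were called. Without the dim array they were -0.55 (0.17) and -0.39 (0.23), and within scan days they were uneven, with -0.16 and -0.07 on day 1 and -1.27 and -0.78 on day 3, the day of the dim array.

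By 24 h both members again overlapped normal liver. After 1/3 PH, miR-101a measured 0.192, 0.218 and 0.186 and miR-101b 1.54, 1.49 and 1.26. After 2/3 PH, miR-101a measured 0.201, 0.166 and 0.142 and miR-101b 1.61, 1.41 and 1.31. At 36 h the 3 arrays after 1/3 PH agreed closely, at 0.216, 0.216 and 0.214 for miR-101a and 1.51, 1.54 and 1.45 for miR-101b. After 2/3 PH at 36 h, miR-101a measured 0.170, 0.161 and 0.192, and miR-101b 1.40, 1.41 and 1.54. Differences from normal at 24 and 36 h ran from -0.32 to 0.04 for miR-101a and from 0.09 to 0.16 for miR-101b, and none passed the test, while 0.694% and 0% of miRNAs were called after 1/3 PH and 18.1% and 18.8% after 2/3 PH. The late wave of calls after 2/3 PH therefore did not include either member, and the 95% intervals of the fold after 2/3 PH were 0.596 to 1.08 at 24 h and 0.617 to 1.12 at 36 h for miR-101a, and 0.849 to 1.36 and 0.856 to 1.37 for miR-101b.

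**Figure D2:**
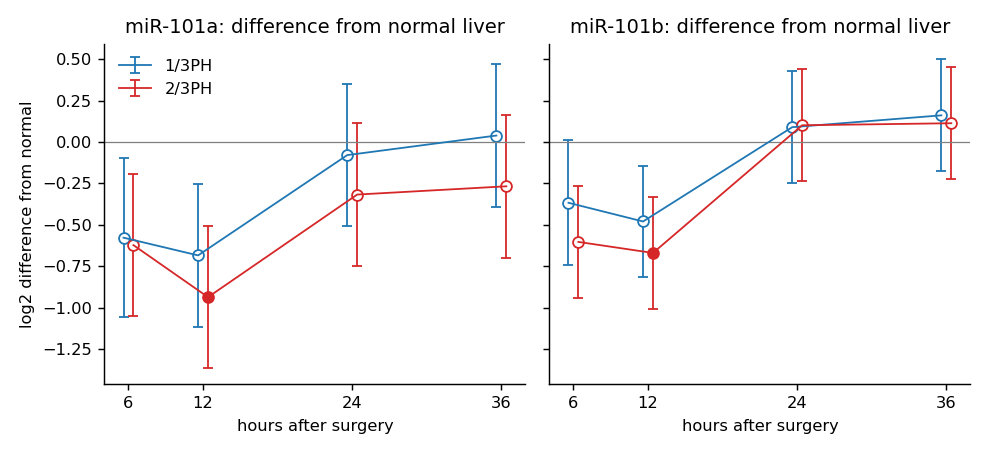
Log2 difference from normal liver of miR-101a (left) and miR-101b (right) against hours after 1/3 PH (blue) or 2/3 PH (red), with 95% confidence intervals of the limma fit; filled points passed an adjusted p of 0.05. The differences were lowest at 12 h after both operations and past the threshold only at 12 h after 2/3 PH, at -0.94 and -0.67.

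The rise between 12 and 24 h was tested as a comparison added after these values had been seen. After 2/3 PH the log2 difference of 24 h from 12 h was 0.62 for miR-101a (1.54-fold, adjusted p = 0.044) and 0.77 for miR-101b (1.71-fold, adjusted p = 0.0030), where 16% of miRNAs were called and 11.8% were called higher. These contrasts share the 12 h arrays with the comparison against normal liver. The miR-101b arrays of the 2 times did not overlap, whereas the highest miR-101a array at 12 h, 0.143, just exceeded the lowest at 24 h, 0.142. Leaving out 1 array at a time kept the call of miR-101b in 26 of 26 fits, at 0.62 to 0.88, but that of miR-101a in 9 of 26, at 0.49 to 0.81. Among alternatives of processing, the call of miR-101b was kept in 10. It was lost without scaling (0.96, adjusted p = 0.34), with the percentile of all probes (0.63, 0.98) and with normexp (0.51, 0.17). It was also lost in the deposited values (0.64, 0.060) and with only the groups compared (0.77, 0.055). The call of miR-101a was lost in 13 alternatives and kept in 1, and its difference was 0.04 under normexp. All arrays at 24 h after 2/3 PH lay on 1 slide that held no 12 h array, so the slide could not be fitted as a block, but within scan day 1 (3 arrays against 2) the differences were 0.81 and 0.88. After 1/3 PH the same interval gave 0.61 (adjusted p = 0.10) and 0.57 (0.053), with 3.47% of miRNAs called.

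Ordered by group mean, miR-101a was highest at 36 h after 1/3 PH, then in normal liver, at 24 h after 1/3 PH, at 36 h and 24 h after 2/3 PH, and then in the 4 groups of 6 and 12 h, with 12 h after 2/3 PH lowest. miR-101b ran from 36 h after 1/3 PH through 36 h and 24 h after 2/3 PH, 24 h after 1/3 PH and normal liver to the same 4 early groups, again with 12 h after 2/3 PH lowest. In both orders the ranges of every pair of neighbouring groups overlapped, so no step parted the arrays of neighbouring groups completely.

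The extent of resection made no difference that passed the test for either member. At 6 h and 12 h no miRNA was called between the operations (0%, with 3 and 9 at an unadjusted p below 0.05), and 2.78% were called at 24 h and 15.3% at 36 h. The log2 differences of 2/3 PH from 1/3 PH were -0.05, -0.25, -0.24 and -0.31 for miR-101a at 6, 12, 24 and 36 h, and -0.24, -0.19, 0.01 and -0.05 for miR-101b. The adjusted p lay between 0.46 and 0.995. The study had selected miR-101a on these arrays as lower at 24 h after 2/3 PH than after 1/3 PH. Its main text does not name the test of that selection. The unadjusted limma p for this comparison here was 0.26. By real-time PCR the study also reports miR-101a as lower after the larger resection, at that hour among others. It further reports that transfected miR-101a changed the cell cycle of rat cell lines. Neither measurement is part of these arrays. At 36 h the miR-101a arrays did not overlap, with the 3 after 2/3 PH lower, yet the spread shared across groups left the 95% interval of the fold at 0.6 to 1.09. The interaction of operation and time, the mean difference between operations at 24 and 36 h less the mean at 6 and 12 h, was -0.12 (adjusted p = 0.84) for miR-101a and 0.20 (0.57) for miR-101b, in a test that called 6.94% of miRNAs.

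Each member was read by 2 probes of 10 spots each. The miR-101a probes were A_26_P00001303, with a median of 17.4 units, and A_26_P00002576, with 21.7 units. Most spots of these probes were well above background on 20 and 22 arrays. They were at or below the floor on 5 and 4 arrays, which were arrays of 6 and 12 h in every case. The miR-101b probes, A_26_P00001156 with 87.5 units and A_26_P00002566 with 214.6 units, were above it on 26 of 26 arrays. Over 26 arrays the probes of miR-101a correlated at r = 0.90 (Spearman's rho 0.91) and those of miR-101b at r = 0.98 (rho 0.94). Between members the 4 probe pairs gave r from 0.56 to 0.73, and from 0.75 to 0.82 over the 21 or 22 arrays on which both probes were above the floor. All of these points share the same arrays and scaling, and the correlations are given as descriptions.

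At 12 h after 2/3 PH all 4 probes lay below normal. A_26_P00001303 differed by -0.79 on the log2 scale (adjusted p = 0.048 over 308 probes) and A_26_P00002576 by -0.77 (0.041), but the first was at the floor on replicates 1 and 2 and the second on replicate 2, so these sizes are set in part by the floor and are not compared with those of miR-101b. A_26_P00002566 of miR-101b differed by -0.66 (adjusted p = 0.041) and A_26_P00001156 by -0.68 (0.054), which did not pass. Between 12 h and 24 h after 2/3 PH the miR-101b probes rose by 0.75 and 0.78 (adjusted p = 0.016 and 0.0052), and the miR-101a probes differed by 0.49 and 0.43 (0.21 for both), where the same floored values make up part of the 12 h side.

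**Figure D3:**
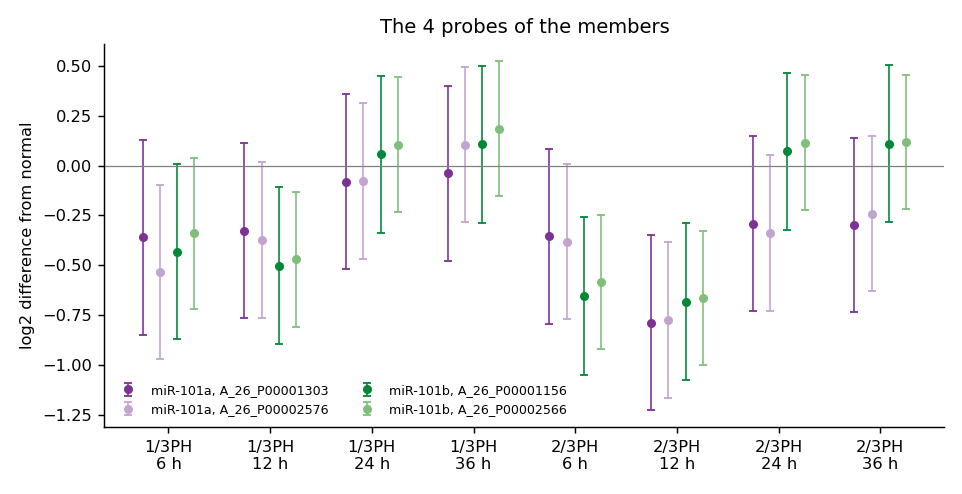
Log2 difference from normal liver of the 4 probes in each group after PH, with 95% confidence intervals of the probe-level limma fit. At 12 h after 2/3 PH the 4 probes lie between -0.79 and -0.66; at 24 and 36 h after 2/3 PH the miR-101a probes lie below 0 and the miR-101b probes above it.

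The 2 members varied alike across arrays. Their scaled signals correlated at r = 0.90 (rho 0.89) over 26 arrays and at 0.89 without the dim array. For deviations from the group means r was 0.87, so arrays with more miR-101a signal than others of their group tended to have more miR-101b signal. Between single probes of the 2 members the same within-group value ran only from 0.17 to 0.60, with the floored values of miR-101a included. The part of cross-hybridisation and of the shared scaling in these correlations was not tested. The log2 signal of miR-101a minus that of miR-101b, taken within each array, nevertheless varied between groups (permutation F test over 9 groups, F = 3.79, p = 0.0082, adjusted over 4 tests 0.033, 100000 resamples). This difference averaged -2.68 ± 0.17 (SD, n = 3) in normal liver, -3.10 ± 0.10 at 24 h and -3.06 ± 0.06 at 36 h after 2/3 PH. At 24 and 36 h after 1/3 PH it was -2.85 ± 0.14 and -2.80 ± 0.04. The operations were not tested apart at single times. At 6 and 12 h it was -2.89 ± 0.06 (n = 2) and -2.88 ± 0.11 after 1/3 PH, and -2.70 ± 0.12 and -2.94 ± 0.21 after 2/3 PH. The 12 h mean after 1/3 PH includes the dim array, at -2.97. miR-101a was at the floor there, so that difference is an upper bound. In the test over 9 groups, labels were permuted over all arrays without regard to slide or scan day. All arrays at 24 h after 2/3 PH lay on 1 slide.

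Within the 4 times of 2/3 PH the permutation test of this difference gave F = 5.22 (p = 0.035, adjusted 0.071), and within those of 1/3 PH F = 0.48 (p = 0.71 for both). Between operations, with labels permuted within times, it was -0.09 on the log2 scale (two-sided permutation p = 0.15, adjusted 0.19). The result over 9 groups passed the threshold in 13 of the 26 fits that left out 1 array, and it was lost with the brightest probe of each member (F = 2.64, adjusted p = 0.085), normexp (2.10, 0.19), the software's gene signal (1.80, 0.12) and the deposited log2 values (1.14, 0.62).

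**Figure D4:**
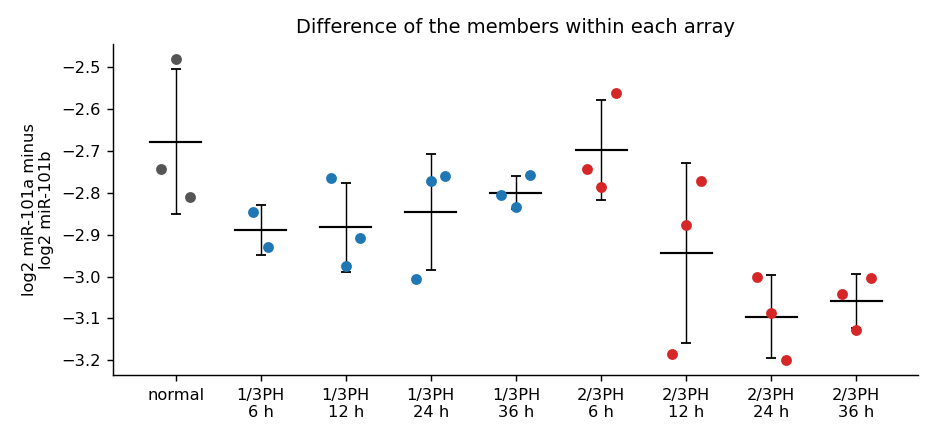
Log2 signal of miR-101a minus log2 signal of miR-101b within each array, by group, with the mean and SD as black lines. The arrays at 24 and 36 h after 2/3 PH lie between -3.20 and -3.001, and the normal arrays between -2.81 and -2.48.

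On one array the value of miR-101a depended on how spots were summarised. On 1/3 PH 6 h replicate 2, 7 spots of A_26_P00001303 gave 12.0 to 17.5 units and 3 gave 532 to 2185. For A_26_P00002576, 9 spots gave 3.04 to 25.1 units and 1 gave 2201. The scanner software had marked the 4 bright spots as outliers, and they were left out here, but its summed gene signal for miR-101a on that array was 154 units, against 1.26 to 47.7 on the other 25 arrays, and the deposited log2 value was 6.68, against at most 5.39 elsewhere. With the 4 spots out, miR-101a at 6 h after 1/3 PH was -0.58 from normal. It was 0.91 above normal with the software's gene signal (adjusted p = 0.68), 0.61 with the deposited values (0.88) and 1.25 with all spots kept (0.15). Keeping marked spots also raised the 75th percentile of that array from 223 to 364 units. miR-101b, whose brighter probe moved only from 156 to 152 units there, then differed by -0.81 at 6 h, with an adjusted p of 0.045.

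**Figure D5:**
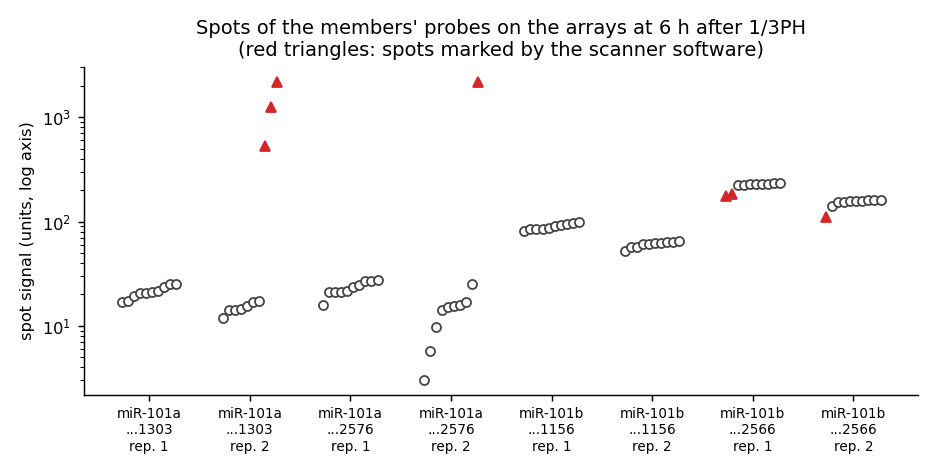
Signal of each of the 10 spots per probe on the 2 arrays at 6 h after 1/3 PH, on a log axis; red triangles are spots that the scanner software marked. On replicate 2, 4 marked miR-101a spots lie between 532 and 2201 units, and the other 16 lie at 25.1 units or less.

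The miRNAs most like miR-101a over the 26 arrays, among those detected on every array, were miR-30e (r = 0.94), miR-101b (0.90), miR-29b (0.87), miR-29c (0.82) and miR-192 (0.77), a hepatocyte-enriched miRNA. For miR-101b they were miR-29b (0.93), miR-19b (0.92), miR-30e (0.89), miR-29c (0.79) and miR-106b (0.78). miR-29b and miR-29c are best known for repressing collagens, and miR-19b belongs to the miR-17~92 cluster, which favours proliferation. For deviations from group means miR-30e and miR-29b kept 0.85 each with miR-101a. With miR-101b, miR-30e kept 0.85 and miR-19b 0.81, while miR-29b, the closest, dropped to 0.73 and miR-106b to 0.47. miR-29c dropped to 0.59 with both members, and miR-192 to 0.58 with miR-101a. The most opposite patterns were let-7a (-0.71), let-7f (-0.66) and miR-1224 (-0.64) for miR-101a, and let-7e (-0.79), let-7f (-0.77) and let-7a (-0.71) for miR-101b. Within groups let-7a gave -0.23 and -0.14 and let-7f -0.29 and -0.30, whereas miR-1224 kept -0.62 with miR-101a and let-7e -0.64 with miR-101b. All miRNAs share the scaling of their array.

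At 12 h after 2/3 PH, 3 of 19 miRNAs listed as restraining growth were lower than normal and 0 were higher, where 6.25% of all miRNAs tested were called lower, and the median log2 difference was 0.08 against 0.04 over all of them. The 3 were miR-29b (-1.01, adjusted p = 0.015), miR-29c (-0.89, 0.027) and miR-192 (-0.34, 0.027). Of 12 listed as promoting growth, 11 were tested; miR-19b was lower (-0.63, adjusted p = 0.045), 0 were higher, and the median was -0.01. At 12 h after 1/3 PH the same 3 restraining miRNAs were lower (miR-29b -0.97, miR-29c -1.03 and miR-192 -0.41, adjusted p = 0.012 for each), against the same normal livers. Over all 144 miRNAs tested, 4 were called lower in that comparison. From 12 h to 24 h after 2/3 PH, when the members rose, 8 of the 11 growth-promoting miRNAs were higher, where 11.8% of all miRNAs were called higher, with a median of 0.95 against 0.05 over all miRNAs. Examples were miR-21 (1.09, adjusted p = 0.00094), miR-93 (0.97, 5.2e-05) and miR-106b (0.78, 0.0021). The restraining list had 2 higher, miR-29b (1.05, 0.0022) and miR-34a (0.78, 0.017), and 1 lower, miR-26a (-0.45, 0.0089), with a median of -0.08. In that interval 6 of the 144 miRNAs tested were called lower. The study itself picked miR-25, miR-93, miR-106b and miR-92a on these arrays, together with miR-101a, so the promoting list is not independent evidence of its direction.

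Markers of cell types were read beside the fall at 12 h after 2/3 PH. The 3 hepatocyte miRNAs (miR-122, miR-192 and miR-194) summed to a scaled signal of 157 to 187 in normal liver and 171 to 197 at 12 h after 2/3 PH, and 1 of them, miR-192, was lower. The 4 leukocyte miRNAs, of which 3 were detected, summed to 0.662 to 0.786 and 0.510 to 0.744, with 0 of 3 tested called. The 5 endothelial and stellate miRNAs, of which 4 were detected, summed to 3.73 to 4.61 and 3.85 to 4.13, with 0 of 4 called. Of the red cell miRNAs, 2 were on the array and 1 was detected in these groups, with sums of 0.435 to 0.537 and 0.313 to 0.836. All these sums add linear signals, so the brightest miRNA of a list weighs most. Undetected miRNAs were counted in, at no less than the array's floor. The sums are therefore not measures of cell content. Between 12 and 24 h after 2/3 PH the hepatocyte list had 0 of 3 called, and 1 of 3 leukocyte miRNAs, miR-150, was lower (-0.56, adjusted p = 0.017). In that interval 16% of the 144 miRNAs tested were called, 6 of them as lower. In the comparison of 12 h after 2/3 PH with normal liver 6.94% were called. Counts of 0 in lists this short therefore say little about cell content. The part of these cells in the members' levels was not tested.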

How the data were processed

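Rat liver RNA was labelled with a single dye and hybridised to 26 Agilent rat miRNA arrays. The authors read spot intensity values with Agilent Feature Extraction 10.7.3.1, after background subtraction and with no scaling between arrays. They also deposited a table of log2 values, normalized between arrays, for 699 features (104 top values identical in all columns), used here only as an alternative.

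Outlier-marked spots were dropped, probe values were means of the rest, and a miRNA was the sum of its probes. Signals were divided by the array's 75th percentile over 109 probes well above background on all arrays, raised to the array's floor (its dimmest probe still well above background), and log2 was taken. Detection was the software's call. Groups and times follow the sample titles. Some source labels give 13, 14, 25, 26, 37 or 38 h. The replicate numbers were given in accession order and pair no samples. Each array was 1 rat, and the number of arrays limits the precision.

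limma 3.58.1 in R 4.3.3 fitted the 9 groups together (144 miRNAs, 308 probes, residual df 17, prior df 2.32), with Benjamini-Hochberg adjustment within each of 15 contrasts and a threshold of 0.05. All p-values of miRNAs and probes come from limma. Member differences were tested by permutation (100000 resamples, scipy 1.17.1). The scripts were tested on simulated data. Named miRNAs are the members, their probes and star strands, the miRNA sharing bases 2 to 7, the 5 most and 3 least correlated with each member, and miRNAs of lists of growth-related and cell type miRNAs. The members and lists were chosen with earlier results of these data known. Alternatives were other scalings, background correction, floors, detection filters, probe summaries, slide and scan day blocks, and leaving out each array. Mature sequences are from RefSeq (GRCr8).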

Additional observations from a re-analysis of the deposited data

Results flagged for a closer look

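The difference between 12 and 24 h after 2/3 PH was flagged for both members because the change from normal liver differed between these times by a test of that difference. The log2 difference of 24 h from 12 h was 0.62 for miR-101a (limma adjusted p = 0.044) and 0.77 for miR-101b (adjusted p = 0.0030), higher in 24 h livers on average in both. The contrast was added after the values had been seen. After 1/3 PH the same contrast gave 0.61 and 0.57 and was not past the threshold, and whether the rise differed between operations was not tested. No group held the 4 arrays that a check for outlying arrays needs.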

How the results depend on the processing

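Values here are log2 differences, from normal liver unless another group is named. The fall at 12 h after 2/3 PH kept its direction in every alternative run for both members, but not its call. Without scaling, calls were lost for miR-101a 2/3 PH 12 h at -1.20 and 2/3 PH 24 h over 12 h at 0.81, and for miR-101b 2/3 PH 12 h at -0.93 and 2/3 PH 24 h over 12 h at 0.96. Opposite signs were found for miR-101b 2/3 PH 36 h at -0.042, 2/3 over 1/3 PH at 12 h at 0.30, 2/3 over 1/3 PH at 24 h at -0.074 and the interaction at -0.068, and for miR-101a 2/3 over 1/3 PH at 12 h at 0.24, and for probe A_26_P00001156 2/3 over 1/3 PH at 24 h at -0.070 and 2/3 over 1/3 PH at 36 h at -0.13, and for probe A_26_P00002566 2/3 over 1/3 PH at 24 h at -0.075. With the 75th percentile of all probes, calls were lost for miR-101a 2/3 PH 12 h at -1.26 and 2/3 PH 24 h over 12 h at 0.48, and for miR-101b 2/3 PH 12 h at -0.99 and 2/3 PH 24 h over 12 h at 0.63. It added calls for miR-101a 1/3 PH 12 h at -1.74, 2/3 over 1/3 PH at 6 h at -1.31 and 1/3 PH 24 h over 12 h at 1.63, and for miR-101b 1/3 PH 12 h at -1.53, 2/3 over 1/3 PH at 6 h at -1.50 and 1/3 PH 24 h over 12 h at 1.59. The sign changed for miR-101a 1/3 PH 6 h at 0.61, 1/3 PH 36 h at -0.53, 2/3 over 1/3 PH at 12 h at 0.48, 2/3 over 1/3 PH at 36 h at 0.18 and the interaction at 0.17, and for miR-101b 1/3 PH 6 h at 0.82, 1/3 PH 36 h at -0.41, 2/3 PH 24 h at -0.36, 2/3 over 1/3 PH at 12 h at 0.54, 2/3 over 1/3 PH at 24 h at -0.42 and 2/3 over 1/3 PH at 36 h at 0.44, and for probe A_26_P00001156 2/3 over 1/3 PH at 24 h at -0.42, and for probe A_26_P00002566 2/3 over 1/3 PH at 24 h at -0.42 and 2/3 over 1/3 PH at 36 h at 0.42, and for probe A_26_P00001303 2/3 over 1/3 PH at 36 h at 0.23, and for probe A_26_P00002576 2/3 over 1/3 PH at 36 h at 0.14. With quantile normalization, calls were lost for miR-101a 2/3 PH 24 h over 12 h at 0.65. New calls appeared for miR-101a 1/3 PH 12 h at -1.18. The direction turned for miR-101a 1/3 PH 36 h at -0.037 and 2/3 over 1/3 PH at 12 h at 0.076, and for miR-101b 2/3 over 1/3 PH at 24 h at -0.11 and 2/3 over 1/3 PH at 36 h at 0.018. With normexp background correction, calls were lost for miR-101a 2/3 PH 12 h at -0.079 and 2/3 PH 24 h over 12 h at 0.037, and for miR-101b 2/3 PH 12 h at -0.43 and 2/3 PH 24 h over 12 h at 0.51, and for F of the member difference over 9 groups at 2.10. Opposite signs were found for miR-101a 1/3 PH 12 h at 0.43, 2/3 PH 6 h at 0.41, 2/3 PH 36 h at 0.51, 2/3 over 1/3 PH at 6 h at 0.56, 2/3 over 1/3 PH at 36 h at 0.44, the interaction at 0.19 and 1/3 PH 24 h over 12 h at -0.46, and for miR-101b 2/3 over 1/3 PH at 6 h at 0.024 and 2/3 over 1/3 PH at 36 h at 0.062, and for the member difference between operations at 0.16. With the software's gene signal, calls were lost for miR-101a 2/3 PH 12 h at -1.17 and 2/3 PH 24 h over 12 h at 0.82, and for F of the member difference over 9 groups at 1.80. The sign changed for miR-101a 1/3 PH 6 h at 0.91 and the interaction at 0.78. With the brightest probe, calls were lost for miR-101a 2/3 PH 24 h over 12 h at 0.43, and for F of the member difference over 9 groups at 2.64. Calls were gained for miR-101b 1/3 PH 24 h over 12 h at 0.57, and for F over the times of 2/3 PH at 9.21. The direction turned for miR-101a 2/3 over 1/3 PH at 6 h at 0.15. With a floor of 1 unit, calls were lost for miR-101a 2/3 PH 24 h over 12 h at 0.62. It added calls for miR-101a 1/3 PH 12 h at -0.76, and for miR-101b 2/3 PH 6 h at -0.60. With marked spots kept, calls were lost for miR-101a 2/3 PH 12 h at -0.95 and 2/3 PH 24 h over 12 h at 0.67, and for miR-101b 2/3 PH 12 h at -0.69. New calls appeared for miR-101b 1/3 PH 6 h at -0.81, and for miR-101a 2/3 over 1/3 PH at 6 h at -1.94, and for the member difference between operations at -0.63. Opposite signs were found for miR-101a 1/3 PH 6 h at 1.25 and the interaction at 0.88, and for miR-101b 2/3 over 1/3 PH at 6 h at 0.11. With the deposited log2 values, calls were lost for miR-101a 2/3 PH 12 h at -1.41 and 2/3 PH 24 h over 12 h at 1.04, and for miR-101b 2/3 PH 12 h at -0.57 and 2/3 PH 24 h over 12 h at 0.64, and for F of the member difference over 9 groups at 1.14. The sign changed for miR-101a 1/3 PH 6 h at 0.61, 1/3 PH 24 h at 0.020 and 2/3 over 1/3 PH at 12 h at 1.63, and for miR-101b 2/3 over 1/3 PH at 6 h at 0.013, 2/3 over 1/3 PH at 24 h at -0.11 and 2/3 over 1/3 PH at 36 h at 0.017. With all miRNAs detected on at least 1 array, calls were lost for miR-101a 2/3 PH 24 h over 12 h at 0.62. With only miRNAs detected on every array, calls were gained for miR-101b 2/3 PH 6 h at -0.60 and 1/3 PH 24 h over 12 h at 0.57. With the slide as a random block, calls were lost for miR-101a 2/3 PH 24 h over 12 h at 0.64. Calls were gained for miR-101a 1/3 PH 12 h at -0.69. With the slide as a fixed block, calls were lost for miR-101a 2/3 PH 12 h at -0.99, and for miR-101b 2/3 PH 12 h at -0.71. The direction turned for miR-101b 2/3 PH 36 h at -0.13. With the scan day as a block, calls were gained for miR-101b 1/3 PH 24 h over 12 h at 0.57. With only the groups compared fitted, calls were lost for miR-101a 2/3 PH 12 h at -0.94 and 2/3 PH 24 h over 12 h at 0.62, and for miR-101b 2/3 PH 12 h at -0.67 and 2/3 PH 24 h over 12 h at 0.77. With a mean-variance trend, calls were lost for miR-101a 2/3 PH 24 h over 12 h at 0.62. It added calls for miR-101b 1/3 PH 24 h over 12 h at 0.57. Values that turned were not past the threshold in the reported fit. The percentile over all probes lay at 0.334 to 3.28 signal units, near background. Other causes were not tested. When each array was left out in turn, values with a changed call or direction ranged, for miR-101a, as 1/3 PH 12 h -0.88 to -0.53, 1/3 PH 24 h -0.27 to 0.078, 1/3 PH 36 h -0.15 to 0.20, 2/3 PH 12 h -1.13 to -0.78, 2/3 PH 24 h over 12 h 0.49 to 0.81, 2/3 over 1/3 PH at 6 h -0.24 to 0.14 and 2/3 PH 6 h -0.82 to -0.44, and for miR-101b as 1/3 PH 12 h -0.64 to -0.38, 1/3 PH 24 h over 12 h 0.48 to 0.66, 1/3 PH 24 h -0.071 to 0.19, 2/3 PH 12 h -0.83 to -0.52, 2/3 over 1/3 PH at 24 h -0.077 to 0.079, 2/3 PH 24 h -0.059 to 0.20, 2/3 PH 36 h -0.047 to 0.22 and 2/3 PH 6 h -0.76 to -0.47, with F over the times of 2/3 PH 2.98 to 11.85 and F over 9 groups 3.08 to 5.06. Where 1 array was left in a group, it was assumed to vary like the other groups. miR-101a could not be fitted under the filter on detection on every array, nor could the contrasts of the slide that held all arrays of 24 h after 2/3 PH and 36 h after 1/3 PH with the slide as a fixed block. No paired analysis was possible because the labels give the groups no shared replicate numbers. miR-101a lay near background, so its values are less certain than those of miR-101b.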
